A study of Mus musculus with 23 samples.

Results

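Cell cycle exit is controlled by proteins that block cyclin-dependent kinases (CDKs), and 10 genes of this machinery were followed here through the endothelial-haematopoietic transition with and without the leukaemia fusion protein RUNX1-ETO. They were 7 genes for CDK inhibitors (Cdkn1a, Cdkn1b, Cdkn1c, Cdkn2a, Cdkn2b, Cdkn2c and Cdkn2d) and the genes Trp53, Mdm2 and Ccng1 of the p53 pathway. Members were found by the RefSeq accession that the array design gives for each probe, which matched 13 probes to the 10 genes, and the probe with the highest mean was used for each gene. All 10 were among the 15202 genes that were tested, out of 20145 genes with a probe. A rise of Cdkn2b in induced myeloid progenitors was the only response of these genes to Dox in any cell population that passed the threshold, where 6.31% of all genes passed. The call was lost with any single array of that comparison left out. Large falls of Cdkn1c and Cdkn2b accompanied the passage from haemogenic endothelium to blood progenitors, where 13.9% of all genes were called without Dox. That comparison was chosen after the levels had been seen. A second, dimmer probe of Cdkn2b passed the threshold for neither its rise nor its fall.

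CDK inhibitors fall into a CIP/KIP family and an INK4 family. The CIP/KIP proteins p21 (Cdkn1a), p27 (Cdkn1b) and p57 (Cdkn1c) bind cyclin-CDK complexes broadly. The INK4 proteins p16 (Cdkn2a), p15 (Cdkn2b), p18 (Cdkn2c) and p19 (Cdkn2d) bind CDK4 and CDK6 and keep the retinoblastoma protein in its growth-suppressing form. Cdkn2a also encodes ARF from another first exon, and ARF restrains MDM2, the ubiquitin ligase that marks p53 (Trp53) for degradation. Cdkn1a, Mdm2 and Ccng1 (cyclin G1) are direct transcriptional targets of p53. In blood formation p57 and p27 are known for holding stem cells in quiescence, and p15 is known for its silencing in myeloid leukaemia.

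The cells came from a mouse embryonic stem cell line in which human HA-tagged RUNX1-ETO complementary DNA stood under a doxycycline-responsive promoter (the A2lox line), on a background with normal Runx1. Sorted populations were HE (haemogenic endothelium, KIT+Tie2+CD41-), HE2 (KIT+Tie2+CD41+) and CD41+KIT+Tie2- progenitors, given Dox at 0.1 μg per ml or none on day 1 of blast culture and taken on day 2. Myeloid progenitors were floating cells expanded with stem cell factor, Flt3 ligand and thrombopoietin, given Dox on day 2 and taken on day 3. Each of HE, HE2 and myeloid progenitors had 3 uninduced and 3 induced arrays, and the progenitors had 2 and 2, which makes 22 arrays in the tests. The strain label is C57BL/6 for all, the line is a single engineered line, and no array of Dox-treated cells without the transgene was analysed here, so that an effect of Dox and one of RUNX1-ETO cannot be told apart. Arrays of a group are labelled biological replicates, and the P values measure the spread between them. Array 3 of induced myeloid progenitors carries a title that calls it a biological replicate and a source name that calls it a technical one. It was used as replicate 3, and the result that rests on it is also given without it.

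Values are log2 fluorescence intensities after background correction and quantile normalization, so that a difference of 1 is a 2-fold difference for the same probe. Levels of different genes were not compared, because probes differ in brightness. Calls required both a limma P value no higher than 0.001 and a 2-fold difference, and P values were adjusted by the Benjamini and Hochberg method over all 15202 genes. Between 48.8 and 78.4% of spots on an array lay well above background, and the probe used for each of the 10 genes did so on all 22 arrays. The probe for Runx1t1, the mouse counterpart of ETO, was higher with Dox in all 4 populations, with log2 changes from 1.24 ± 0.335 (SE) in HE to 3.96 ± 0.410 in progenitors and adjusted P values from 1.17e-05 to 0.0155. The probe lies in the mouse gene, and its reading of the human cDNA was not tested. Among the genes of the sort markers, Tek (Tie2) averaged 11.95 in uninduced HE and 8.67 in uninduced progenitors. Itga2b (CD41) lay between 9.49 and 11.46 on the uninduced arrays of HE, where the gate was CD41-, between 11.19 and 12.51 on those of HE2 and between 11.42 and 11.91 on those of progenitors. With Dox Itga2b fell in HE by 3.21 ± 0.652 (adjusted P = 0.00205), to between 6.92 and 8.02, and its log2 change in HE2 was -2.46 ± 0.652 (adjusted P = 0.0139). The early arrays lay on slides 1 and 2 except array 2 of induced progenitors, which shared slide 3 with all 6 myeloid arrays. Values within slides are therefore given beside the main stage comparisons.

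The starts of these genes are shown because RUNX1-ETO keeps the DNA-binding domain of RUNX1 and because p53 acts on several of them. RefSeq windows from 250 bases before to 50 bases after a start site (GRCm38.p6) matched 9 of the 10 genes with 12 windows, and no window was matched for Cdkn1c. The windows were searched on both strands for the RUNX core letters TGTGGT or TGCGGT and for the consensus p53 half-site of 10 bases. The bases before the start are printed below from 5′ to 3′ for Cdkn2b (chr4:89311033-89311282, minus strand), Cdkn2d (chr9:21291210-21291459, minus strand) and Mdm2 (chr10:117710759-117711008, minus strand), the genes with the clearest Dox values, and for Cdkn1a (chr17:29090729-29090978, plus strand), the classical p53 target. Capitals mark letters that match either motif.
Cdkn2b: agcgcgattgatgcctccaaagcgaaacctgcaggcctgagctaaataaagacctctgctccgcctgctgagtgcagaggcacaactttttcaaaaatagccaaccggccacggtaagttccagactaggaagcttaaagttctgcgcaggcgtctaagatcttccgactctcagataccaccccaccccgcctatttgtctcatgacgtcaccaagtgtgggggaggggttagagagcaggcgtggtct
Cdkn2d: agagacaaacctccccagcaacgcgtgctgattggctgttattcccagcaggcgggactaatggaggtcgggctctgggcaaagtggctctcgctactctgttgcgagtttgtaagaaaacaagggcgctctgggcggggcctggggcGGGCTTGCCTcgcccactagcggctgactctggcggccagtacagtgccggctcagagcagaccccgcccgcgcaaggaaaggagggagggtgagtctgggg
Mdm2: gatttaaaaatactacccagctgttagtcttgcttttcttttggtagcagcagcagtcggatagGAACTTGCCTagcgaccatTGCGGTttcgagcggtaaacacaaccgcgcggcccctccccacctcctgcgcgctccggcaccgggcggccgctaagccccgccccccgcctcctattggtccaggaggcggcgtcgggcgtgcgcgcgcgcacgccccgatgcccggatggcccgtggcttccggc
Cdkn1a: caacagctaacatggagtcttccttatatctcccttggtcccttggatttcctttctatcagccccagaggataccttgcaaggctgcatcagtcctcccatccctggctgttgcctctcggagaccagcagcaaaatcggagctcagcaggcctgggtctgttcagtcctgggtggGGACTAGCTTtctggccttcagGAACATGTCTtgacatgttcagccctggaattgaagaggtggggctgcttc
RUNX letters were found in 2 of the 12 windows, in Mdm2 at base -167 and in Ccng1 at base -5 counted from the start, whereas 22.4% of all 32851 mouse windows held them. The p53 half-site letters were found in 5 of the 12 windows, against 8.36% of all windows. These were the printed window of Cdkn1a (at bases -73 and -51) and those of Cdkn2d (-102), Trp53 (-75), Mdm2 (-186) and Ccng1 (-185). Neither motif was found in the windows of Cdkn1b, Cdkn2a, Cdkn2b or Cdkn2c, or in a second window of Cdkn1a (chr17:29093519-29093818, plus strand). A match describes the letters only, and binding was not measured here.

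The levels of all 10 genes on every array are plotted by cell population.

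**Figure D1:**
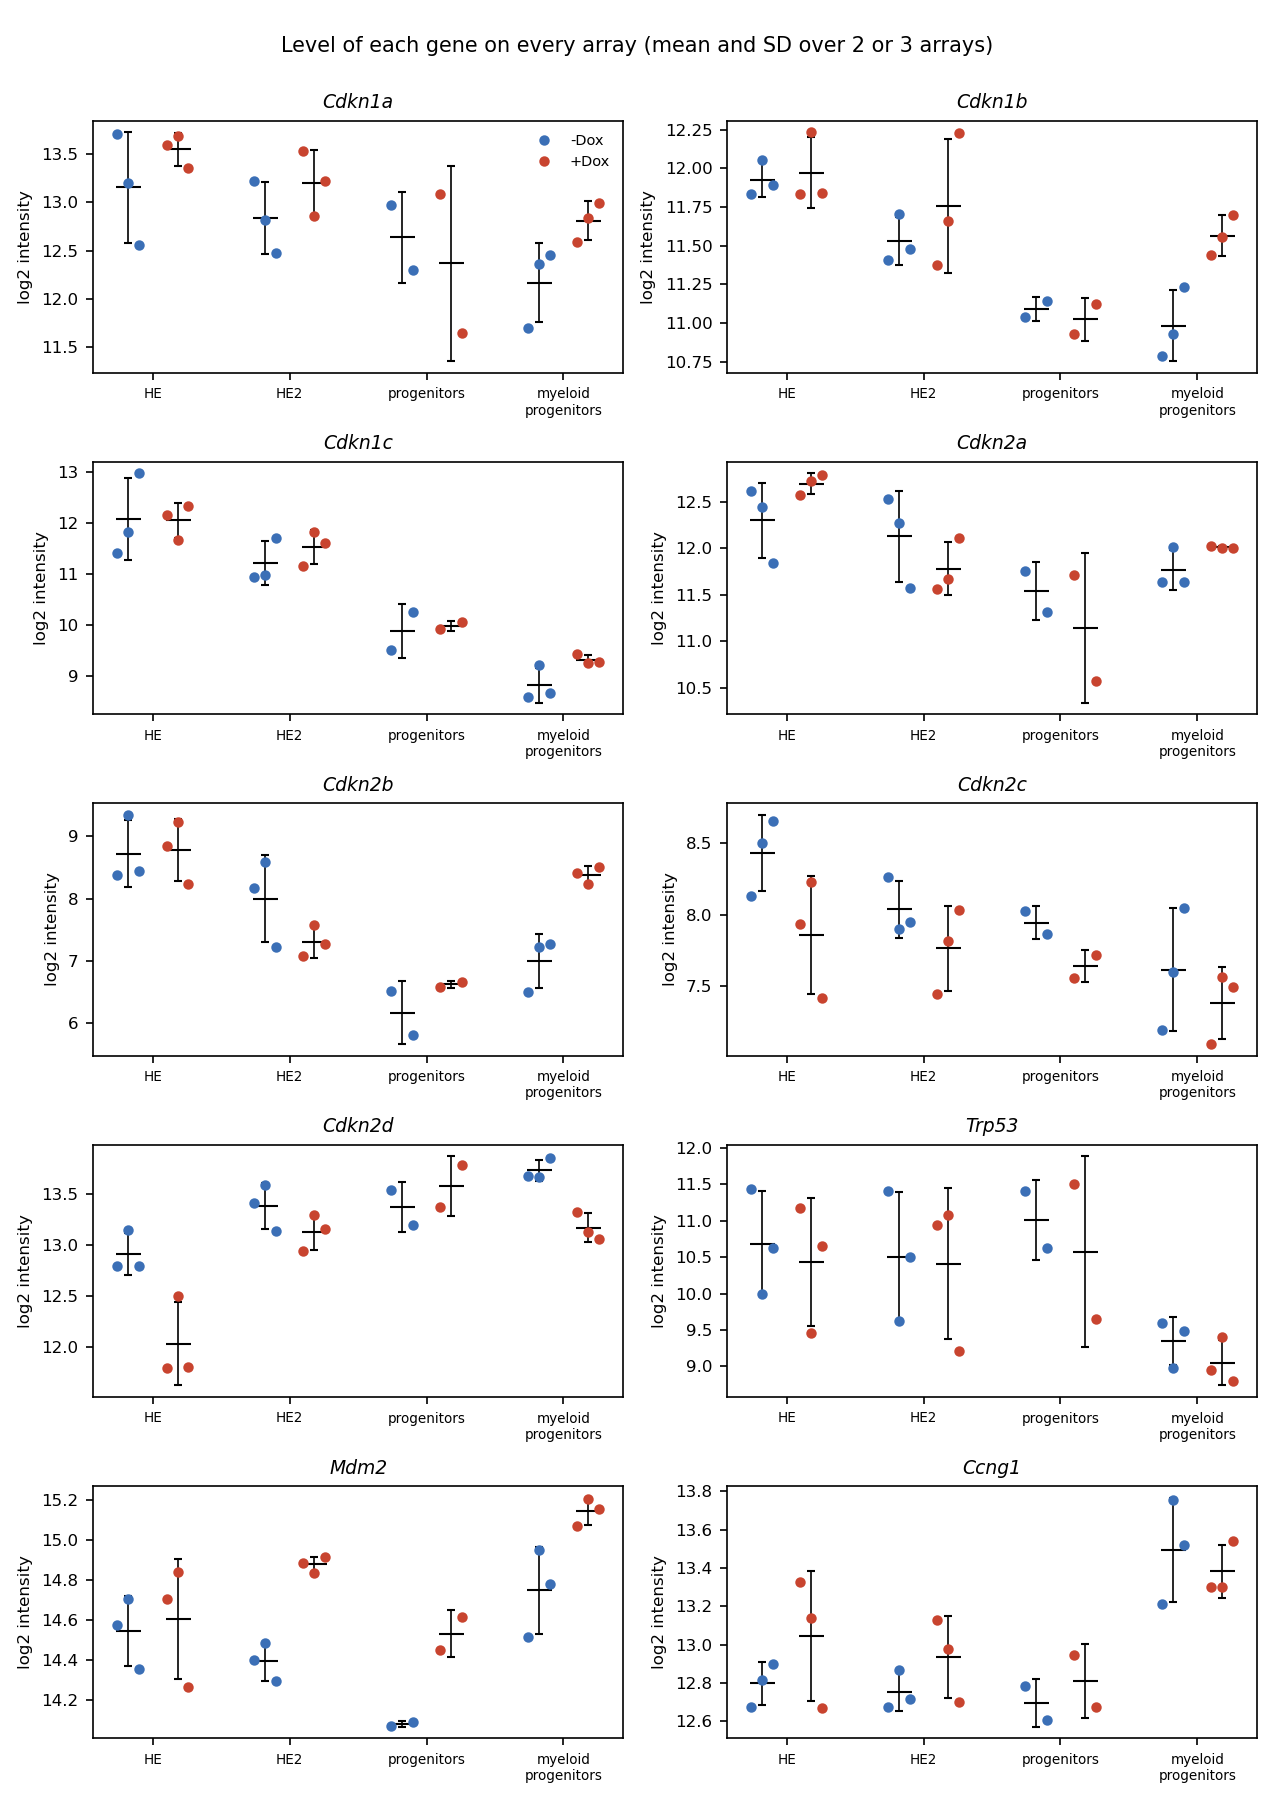
Log2 intensity of each gene (vertical axis) on every array of the 4 cell populations (horizontal axis), with uninduced arrays in blue, induced arrays in red, and the mean and SD of each group as a bar and whiskers. Cdkn1c has means from 12.07 in uninduced HE down to 8.82 in uninduced myeloid progenitors, Cdkn2b is lowest in progenitors and higher in induced than in uninduced myeloid progenitors, and Trp53 scatters widely within the early groups. Vertical axes differ between panels.

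Of the CIP/KIP genes, Cdkn1c fell most with differentiation. Its level in uninduced cells was 11.41, 11.83 and 12.97 on the HE arrays, 10.95, 10.98 and 11.71 on the HE2 arrays, 9.52 and 10.25 on the progenitor arrays and 8.59, 9.21 and 8.66 on the myeloid progenitor arrays. In induced cells it was 12.16, 11.65 and 12.32 in HE, 11.16, 11.82 and 11.60 in HE2, 9.92 and 10.06 in progenitors and 9.43, 9.26 and 9.28 in myeloid progenitors. The progenitor arrays lay below all HE and HE2 arrays with and without Dox, and all myeloid arrays lay below all progenitor arrays. How many of all genes separated in this way between stages was not counted. From HE to progenitors Cdkn1c fell by 2.18 ± 0.373 (SE) without Dox (adjusted P = 0.000192, limma) and by 2.06 ± 0.373 with Dox (adjusted P = 0.000364). Within slides the log2 change without Dox was -2.10 on slide 1 and -2.71 on slide 2, and with Dox it was -2.24 on slide 1. Without uninduced progenitor array 1 the uninduced change was -1.82 and missed the P threshold. Endothelial, smooth and cardiac muscle markers fell over the same step without Dox, with 5 of 8 endothelial genes and 5 of 6 muscle genes called lower, at median changes of -2.21 and -3.02. The part of these other transcripts in the fall of Cdkn1c was not tested, and in cells sorted in bulk fewer cells with a transcript and less transcript per cell cannot be told apart.

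Cdkn1a and Cdkn1b moved less. Cdkn1a, a main effector of p53 arrest, ranged over all 22 arrays from 11.65 to 13.70, with group means between 12.17 in uninduced myeloid progenitors and 13.54 in induced HE. Its probe occupies 10 spots, whose SD on an array had a median of 0.0845 and a maximum of 0.216, while the SD between arrays of a group had a median of 0.390. The pair of induced progenitor arrays read 13.08 and 11.65, further apart than the means of any groups of this gene, and the lower of them was the array on slide 3. Cdkn1b, which holds cells in G1, read 11.84, 12.05 and 11.89 in uninduced HE, 11.04 and 11.15 in uninduced progenitors and 10.79, 10.93 and 11.23 in uninduced myeloid progenitors. All uninduced progenitor arrays lay below all uninduced HE arrays, though the share of all genes that separated so was not counted. The change of -0.83 ± 0.218 from HE to progenitors had an adjusted P of 0.00790 but was under 2-fold. With Dox the same step gave -0.94 ± 0.218 (adjusted P = 0.00296). Within slides the changes were -0.91 and -0.74 without Dox on slides 1 and 2, and -0.91 with Dox on slide 1.

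Among the INK4 genes, Cdkn2b had the widest course. Uninduced cells read 8.38, 9.34 and 8.44 in HE, 8.17, 8.59 and 7.23 in HE2, 6.52 and 5.81 in progenitors and 6.5, 7.23 and 7.27 in myeloid progenitors. Induced cells read 8.85, 9.23 and 8.24 in HE, 7.08, 7.57 and 7.26 in HE2, 6.59 and 6.66 in progenitors and 8.41, 8.23 and 8.51 in myeloid progenitors. In order of group means these were induced HE (8.77), uninduced HE (8.72), induced myeloid progenitors (8.38), uninduced HE2 (7.99), induced HE2 (7.30), uninduced myeloid progenitors (7.0), induced progenitors (6.62) and uninduced progenitors (6.17). The arrays of each group overlapped those of its neighbour in this order, except between the progenitor groups at the end. Cdkn2b fell by 1.82 ± 0.384 from HE2 to progenitors without Dox (adjusted P = 0.00441), with log2 changes of -1.85 on slide 1 and -1.41 on slide 2. From HE to progenitors its log2 change was -2.55 ± 0.384 without Dox (adjusted P = 5.20e-05) and -2.15 ± 0.384 with Dox (adjusted P = 0.000327). Within slide 1 the log2 change from HE to progenitors was -2.33 without and -2.26 with Dox, and within slide 2 it was -2.62 without Dox. With Dox it fell by 1.47 ± 0.344 between HE and HE2 (adjusted P = 0.0152), where the slides gave log2 changes of -1.77 on slide 1 and -1.32 on slide 2. This call was lost without induced HE array 1 (-1.43) or 2 (-1.24) and without induced HE2 array 1 (-1.35) or 3 (-1.45). The call of the step from HE2 to progenitors was lost without uninduced HE2 array 2 (-1.53) or uninduced progenitor array 2 (-1.47).

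In myeloid progenitors Cdkn2b rose with Dox by 1.38 ± 0.344, a 2.60-fold rise with a 95% interval of 1.58 to 4.30 (adjusted P = 0.0105, limma). All 3 induced arrays lay above the highest uninduced array, and all 6 arrays shared slide 3. For 46.3% of all genes the induced arrays here lay either all above or all below the uninduced ones. The P value is close to its limit, and with any 1 of the 6 arrays left out the change stayed between 1.13 and 1.52 and missed the P threshold. Without the array of disputed label, induced array 3, it was 1.32 (adjusted P = 0.0422). In these cells 5 of 8 endothelial marker genes also rose with Dox, among them Kdr by 2.24 ± 0.30 and Cdh5 by 1.69 ± 0.256, and 1 (Vwf) fell, while 1 of 6 muscle genes rose. The median endothelial change was 1.93 against -0.02 over all genes, Tek (Tie2) lay between 8.96 and 9.63 without Dox and between 11.97 and 12.58 with Dox, and the part of such transcripts in the rise of Cdkn2b was not tested.

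Cdkn2b has a second, dimmer probe, well above background on 19 of 22 arrays. On it the myeloid arrays read 5.26, 6.12 and 5.94 without Dox and 6.63, 6.57 and 6.35 with Dox. The change was 0.74 ± 0.414 (adjusted P = 0.286). The readings did not overlap, as for 46.3% of all tested genes in this comparison. The uninduced readings and the lowest induced one lay under the level of 6.5 required of a tested gene. From HE to HE2 with Dox the log2 change of this probe was -1.48 ± 0.414 (adjusted P = 0.0411), and from HE to progenitors its log2 change was -0.82 ± 0.463 without (adjusted P = 0.244) and -1.75 ± 0.463 with Dox (adjusted P = 0.00777). Uninduced HE array 3 read 5.13 on it, far below the 7.08 and 7.64 of its group.

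**Figure D2:**
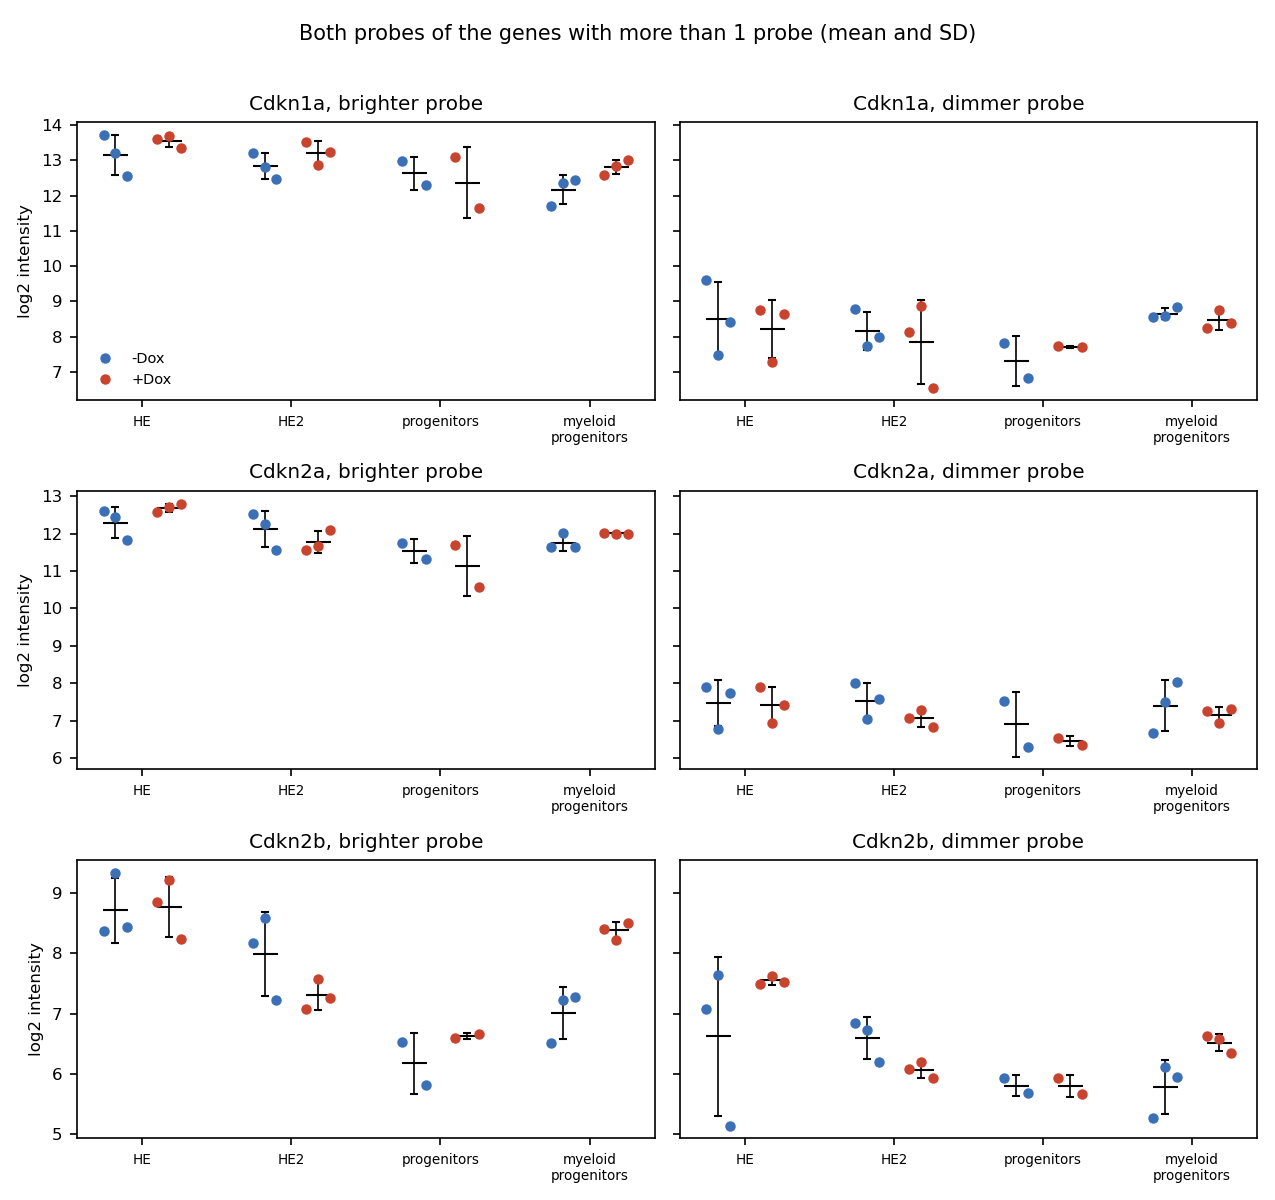
Log2 intensity on every array (vertical axis) of the brighter probe (left) and dimmer probe (right) of Cdkn1a, Cdkn2a and Cdkn2b in the 4 cell populations, with uninduced arrays in blue, induced arrays in red, and mean and SD as bar and whiskers. Both Cdkn2b probes place the 3 induced myeloid arrays above the 3 uninduced ones, by 1.38 and 0.74 on average. In these cells 46.3% of all genes had no overlap, with induced arrays either all higher or all lower. The dimmer probes of Cdkn1a and Cdkn2a changed with Dox by -0.19 and -0.24 in myeloid progenitors, where the brighter ones changed by 0.64 and 0.25.

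Cdkn2d ran the other way from Cdkn2b with Dox from HE to progenitors, but without Dox it changed by -0.01 from HE2 to progenitors. It read 12.79, 13.15 and 12.79 in uninduced HE, 11.79, 12.51 and 11.80 in induced HE, 13.42, 13.59 and 13.14 in uninduced HE2 and 12.94, 13.29 and 13.16 in induced HE2. Progenitors read 13.55 and 13.20 without and 13.38 and 13.79 with Dox, and myeloid progenitors 13.68, 13.67 and 13.86 without and 13.33, 13.13 and 13.06 with Dox. Induced HE arrays lay below every other array of this gene. With Dox it rose from HE to HE2 by 1.1 ± 0.203 (adjusted P = 0.00261), with 1.15 on slide 1 and 1.07 on slide 2, a call lost at 0.98 without induced HE array 1 or 3, and from HE to progenitors by 1.55 ± 0.227 (adjusted P = 4.76e-05), with 1.58 on slide 1. Without Dox the first of these changes was 0.47 ± 0.203 (adjusted P = 0.170) and the other 0.46 ± 0.227 (adjusted P = 0.171). In HE itself the log2 change of Cdkn2d with Dox was -0.88 ± 0.203, under the 2-fold limit but with an adjusted P of 0.00538, and it was -1.18 on slide 1 and -0.64 on slide 2. Without induced HE array 2 the change was -1.12 and passed the threshold. In a fit of only the HE arrays its adjusted P was 0.104. The CD41 transcript Itga2b, given above, fell in the same comparison, and its part in the Cdkn2d change was not tested. The difference between the Dox responses of progenitors and HE was 1.09 ± 0.321, with an adjusted P of 0.0696.

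Cdkn2a and Cdkn2c completed the family. Cdkn2a, for which p16 and ARF transcripts were not told apart here, read 12.61, 12.45 and 11.84 in uninduced HE and 12.58, 12.72 and 12.79 in induced HE. It read 11.76 and 11.32 in uninduced and 11.71 and 10.58 in induced progenitors, and 12.03, 12.01 and 12.01 in induced myeloid progenitors. From HE to progenitors with Dox it fell by 1.55 ± 0.317 (adjusted P = 0.00106), a call that rested on the low induced progenitor array of slide 3 and was lost without it (-0.98) and with slide as a block (-1.17). Its second probe had group means from 6.44 to 7.53 and held no Dox change with an adjusted P under 0.05. Cdkn2c kept within a span of 1.05 between group means, from 7.39 in induced myeloid progenitors to 8.43 in uninduced HE. Its mean was lower with than without Dox in each of the 4 populations. The log2 changes ran from -0.57 ± 0.242 in HE to -0.23 ± 0.242 in myeloid progenitors, and none of the 4 passed.

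In the p53 pathway, Trp53 itself was the least reproducible of the 10 genes. Its residual SD was 0.791, and 97.1% of tested genes had a lower one, compared with a median of 0.308. The 6 early arrays numbered 1 read between 10.94 and 11.50, and the 10 early arrays numbered 2 or 3 between 9.22 and 11.07. The probe has 2 spots, which differed on an array by a median of 0.111 and at most by 0.224, so that the scatter lay between arrays. Myeloid progenitors read 9.6, 8.98 and 9.48 without and 8.95, 9.40 and 8.80 with Dox, while the uninduced progenitor arrays, on slides 1 and 2, read 11.40 and 10.62. On slide 3 itself the induced progenitor array read 9.65 and the additional uninduced one 10.03, and with slide as a block the step from progenitors to myeloid progenitors without Dox was -0.08 in place of -1.66. The Dox change of Trp53 had no settled direction in the early populations. It was -0.26 in HE, -0.10 in HE2 and -0.43 in progenitors, where the 95% interval ran from -1.94 to 1.07, but with slide as a block it was 0.09 in HE2 and 0.22 in progenitors, and without 1 array it ranged from -0.63 to 0.23 in HE and from -1.36 to 0.49 in progenitors. In myeloid progenitors it was -0.30 ± 0.583.

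Mdm2, the antagonist and target of p53, was by contrast the most reproducible, with a residual SD of 0.166. It read 14.57, 14.71 and 14.36 in uninduced and 14.70, 14.84 and 14.27 in induced HE, and 14.40, 14.49 and 14.29 in uninduced and 14.88, 14.84 and 14.91 in induced HE2. It read 14.07 and 14.09 in uninduced and 14.45 and 14.62 in induced progenitors, and 14.52, 14.95 and 14.78 in uninduced and 15.07, 15.20 and 15.16 in induced myeloid progenitors. Induced and uninduced arrays separated, in either direction, for 32.1% of all genes in HE2, 48.9% among progenitor arrays and 46.3% among myeloid ones. For Mdm2 the induced arrays lay above all uninduced arrays of these 3 populations and overlapped them in HE. The changes were 0.48 ± 0.160 in HE2 (adjusted P = 0.0452), 0.45 ± 0.196 in progenitors (adjusted P = 0.202) and 0.39 ± 0.160 in myeloid progenitors (adjusted P = 0.120), against 0.06 ± 0.160 in HE (adjusted P = 0.887), and the responses of the later populations did not differ from that of HE with an adjusted P under 0.05. All of these are below 2-fold. Mdm2 depended on scaling, since with arrays scaled to their 75th percentile the HE2 change was 0.26 (adjusted P = 0.563), and leaving out any 1 of its arrays gave adjusted P values from 0.0647 to 0.144. From progenitors to myeloid progenitors its log2 change was 0.67 ± 0.179 without Dox (adjusted P = 0.00824), where all genes had a median change of -0.12 and slide 3 held the myeloid arrays but no uninduced progenitor array of the fit. That value was 0.27 with 75th percentile scaling, and within slide 3 the step with Dox was 0.53.

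Ccng1, a p53 target that feeds back on MDM2, read 12.68, 12.82 and 12.90 in uninduced and 13.33, 13.14 and 12.67 in induced HE. It was highest in myeloid progenitors, at 13.21, 13.75 and 13.52 without and 13.30, 13.30 and 13.54 with Dox. Its difference from uninduced progenitors was 0.80 ± 0.207 (adjusted P = 0.00660), 0.44 with 75th percentile scaling and 0.99 with slide as a block. Within slide 3 the additional uninduced progenitor array read 12.72, below all myeloid arrays, and the step with Dox was 0.71. Dox changed it by between -0.11 and 0.25, with no adjusted P under 0.05.

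The calls of the 10 genes with Dox were set beside those of all genes. None was called in HE, where 7.09% of all genes were called, none in HE2 against 7.22%, none in progenitors against 3.73%, and 1 (Cdkn2b, up) in myeloid progenitors against 6.31%. At an unadjusted P under 0.05, 2 of the 10 genes passed in HE (26.9% of all genes), 1 in HE2 (29.5%), 1 in the progenitors (20.2%) and 4 in myeloid progenitors (25.4%). An adjusted P of at most 0.05 with no limit on size was reached by 1 gene in HE (Cdkn2d, 15.6% of all genes), 1 in HE2 (Mdm2, 17.2%), none in progenitors (5.53%) and 1 in myeloid progenitors (Cdkn2b, 13.8%). Induced and uninduced arrays did not overlap for 1 gene in HE, where 25% of all genes did not, 1 in HE2 against 32.1%, 3 in progenitors against 48.9% and 6 in myeloid progenitors against 46.3%. These 6 were Cdkn1a, Cdkn1b, Cdkn1c, Cdkn2b and Mdm2, higher with Dox, and Cdkn2d, lower. The median Dox change over the 10 genes was 0.05 in HE and 0.32 in myeloid progenitors, beside -0.01 and -0.02 over all genes. Averaged over the 4 populations, a comparison chosen after the levels had been seen, the log2 change was 0.35 ± 0.0850 for Mdm2 (adjusted P = 0.00364), -0.37 ± 0.108 for Cdkn2d (adjusted P = 0.0116) and -0.35 ± 0.128 for Cdkn2c (adjusted P = 0.0439), that is 3 of 10 genes where 35.4% of all genes passed. The Cdkn2c value was lost with slide as a block (adjusted P = 0.0608). With arrays scaled to the 75th percentile, where all genes shifted by a median of -0.11, the mean change of Mdm2 was 0.11 (adjusted P = 0.544).

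**Figure D3:**
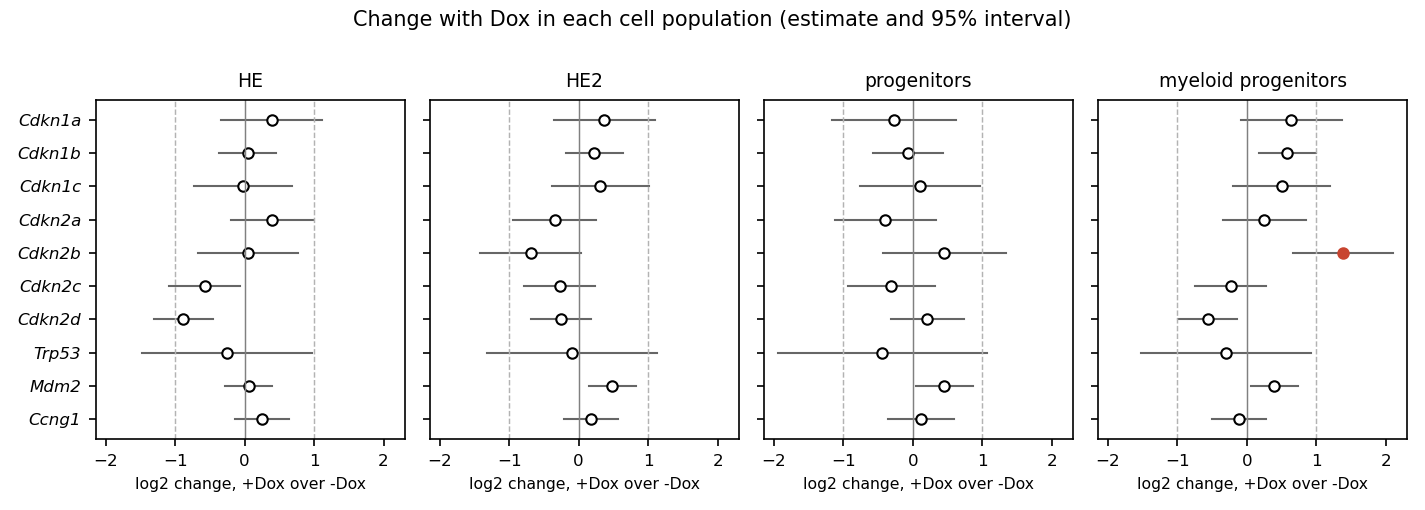
Log2 change with Dox of each of the 10 genes (horizontal axis) in the 4 cell populations (panels), with 95% intervals from the limma fit, dashed lines at 2-fold and filled circles for genes called changed. The single filled circle is Cdkn2b in myeloid progenitors at 1.38, and the widest intervals belong to Trp53.

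Along differentiation, Cdkn1c, Cdkn2b and Cdkn2d were the members called at a single step. From HE to HE2 none was called without Dox (5.07% of all genes) and 2, Cdkn2b down and Cdkn2d up, with Dox (3.1%). From HE2 to progenitors 1 was called without Dox (Cdkn2b, 5.39%) and 1 with Dox (Cdkn1c, down by 1.54 ± 0.373, adjusted P = 0.00841, 7.36%), with -1.24 within slide 1. The last of these calls was lost with slide as a block (-1.18) and without either induced progenitor array (-1.47 without array 1 and -1.61 without array 2) or induced HE2 arrays 2 (-1.39) or 3 (-1.50). From progenitors to myeloid progenitors none was called without Dox (13.9%) and 1 with Dox (7.37%), where Cdkn2b rose by 1.76 ± 0.384 (adjusted P = 0.00382). The induced progenitor array on slide 3 gave 1.73 for that rise within the slide, and the call was lost without either induced progenitor array or without induced myeloid array 3. Over the whole way from HE to progenitors, another comparison chosen after the levels had been seen, 2 of 10 genes were called without Dox (Cdkn1c and Cdkn2b, down), where 13.9% of all genes were called, and 4 of 10 with Dox (Cdkn1c, Cdkn2a and Cdkn2b down, Cdkn2d up), where 14.5% were. Interaction terms, which test whether Dox acted differently in a later population than in HE, called none of the 10 genes for HE2 (1.34% of all genes), for progenitors (2.97%) or for myeloid progenitors (4.72%). The interaction for Cdkn2b between myeloid progenitors and HE was 1.33 ± 0.486 (adjusted P = 0.133), so that its rise was not shown to be particular to the myeloid progenitors.

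**Figure D4:**
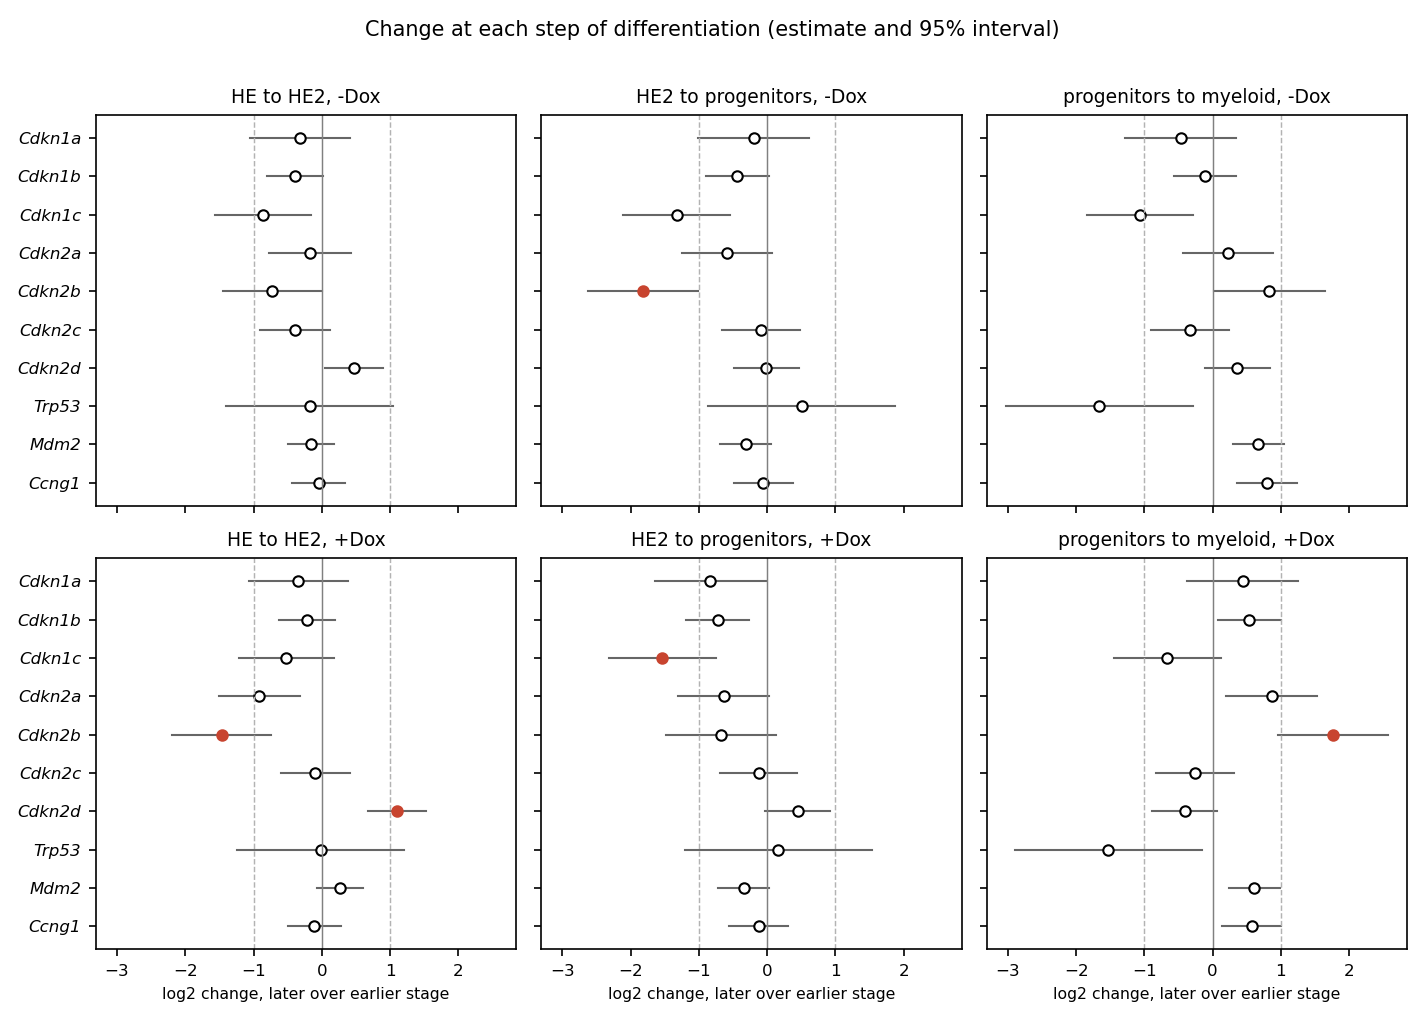
Log2 change of each gene (horizontal axis) at each step of differentiation (columns) without Dox (top) and with Dox (bottom), with 95% intervals from the limma fit, dashed lines at 2-fold and filled circles for genes called changed. Cdkn1c lies below 0 at all 6 steps, Cdkn2b lies below 0 up to the progenitors and above 0 after them, and Mdm2 and Ccng1 lie above 0 at the last step.

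Around these genes, lists of partners were set out by function. The cyclins and CDKs, which the inhibitors act on, held none called of 13 tested genes in HE, HE2 or progenitors, and in myeloid progenitors Ccne1 (cyclin E1) fell by 1.02 ± 0.217 (adjusted P = 0.00327). Of the retinoblastoma and E2F genes, E2f1 and E2f8 fell in HE by 1.21 ± 0.178 and 1.20 ± 0.281, and Rb1 rose in HE2 by 1.39 ± 0.135. Of 13 tested genes, 2 were thus called in HE (7.09% of all genes) and 1 in HE2 (7.22%). None was called in progenitors (3.73%) or myeloid progenitors (6.31%). Proliferation markers were lower with Dox in HE as a list, with 0 of 17 genes higher, a median change of -0.68 beside -0.01 over all genes, 1 called (Cdc6, which loads the replicative helicase, down by 1.12 ± 0.221) and 12 with an adjusted P of at most 0.05. Their median was -0.48 in HE2 and -0.46 in myeloid progenitors, but -0.03 in progenitors. Smooth and cardiac muscle markers had a median change of -1.60 with Dox in HE, with 1 of 6 called higher and 1 lower. The part of either list in the Cdkn2d change in HE was not tested.

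Of 30 other p53 targets, 1 was called in HE (7.09% of all genes), 3 in HE2 (7.22%), 1 in the progenitors (3.73%) and 5 after expansion to myeloid progenitors (6.31%). Sesn1, a p53 target that restrains mTORC1, was called in all 4. It averaged 11.12 in uninduced and 12.93 in induced HE, with arrays from 10.95 to 11.46 and from 12.85 to 13.05, and rose there by 1.80 ± 0.236 (adjusted P = 3.33e-05). It rose by 1.64 ± 0.236 in HE2, by 1.13 ± 0.288 in the progenitors and, later, by 1.46 ± 0.236 in myeloid progenitors, with no overlap of induced and uninduced arrays in any of them. In HE2 Btg2, an antiproliferative gene, rose by 1.05 ± 0.245 and Perp, a desmosomal and apoptotic p53 target, fell by 1.80 ± 0.384. In myeloid progenitors Ak1 rose by 1.23 ± 0.311 and Plk2 by 1.16 ± 0.268, and Btg2 fell by 1.39 ± 0.245 and Gadd45a, a growth arrest gene, by 1.06 ± 0.243. Btg2 thus rose in one population and fell in another, and as a list the other p53 targets had median changes of -0.18, 0.14, -0.05 and 0.06 in the order of differentiation. Of 16 tested p53 regulators, Hipk2, a kinase of p53, was called in HE with a rise of 1.16 ± 0.197, and none was called in the other populations.

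Regulators of the inhibitors formed 2 further lists. Among 11 tested regulators of p21 and p27 level, Klf4, which activates Cdkn1a, rose by 1.64 ± 0.215 in HE, 2.57 ± 0.215 in HE2 and 1.88 ± 0.263 in progenitors and changed by 0.98 in myeloid progenitors without a call, and the Cdkn1a changes in the first 3 of these populations were 0.39 ± 0.345, 0.37 ± 0.345 and -0.27 ± 0.423. The last of these was 0.18 with slide as a block, 0.12 within slide 1 and 0.45 without induced progenitor array 2. Klf6, another activator of Cdkn1a, rose by 1.28 ± 0.184 in HE2 and by 1.71 ± 0.184 in myeloid progenitors, where Cdkn1a changed by 0.64 ± 0.345 (adjusted P = 0.269). Smad3, which carries transforming growth factor beta signals, fell by 1.20 ± 0.185 in HE. Among 15 tested regulators of the INK4 and ARF genes, Ets1, an activator of Cdkn2a, rose by 1.79 ± 0.283 in HE2 and 2.68 ± 0.283 in myeloid progenitors, and the others were not called in any population. Cdkn2a changed in the same cells by -0.35 ± 0.283 and 0.25 ± 0.283.

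**Figure D5:**
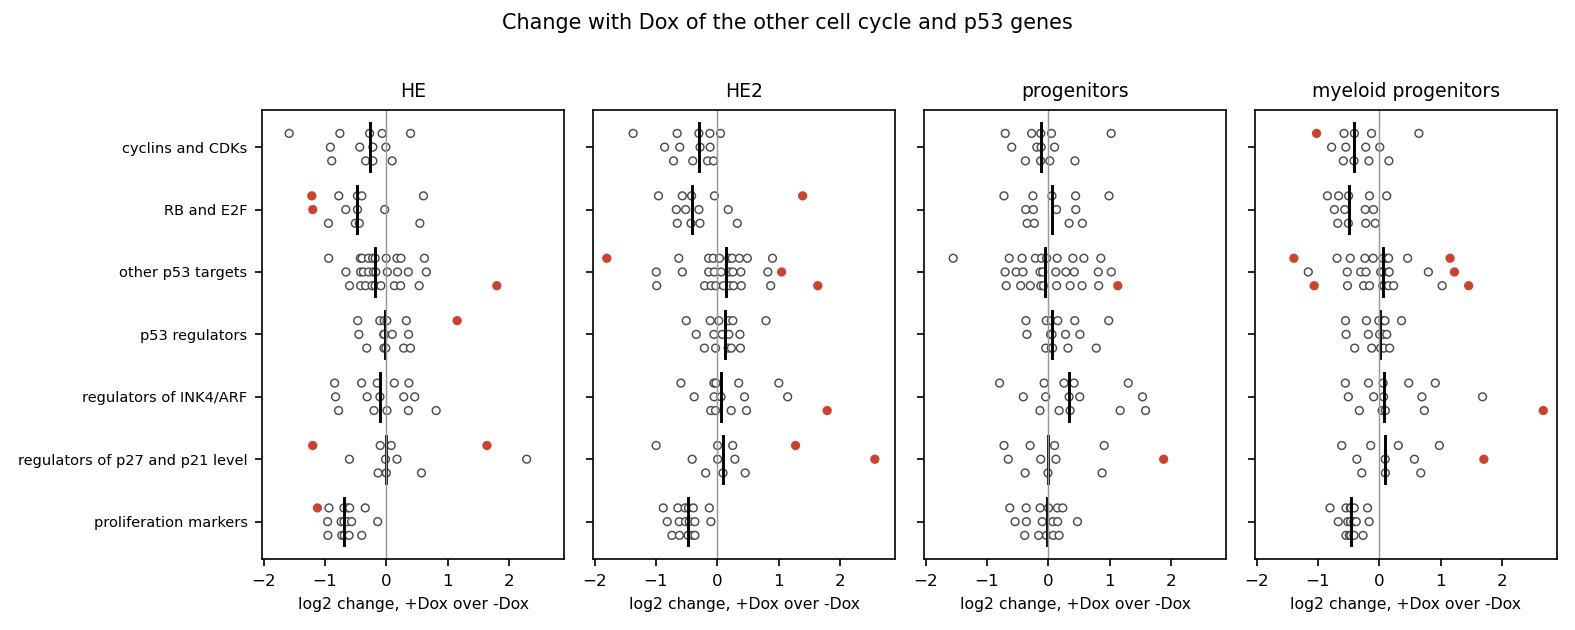
Log2 change with Dox (horizontal axis) of each tested gene of 7 lists (rows) in the 4 cell populations (panels), with filled red circles for genes called changed and a black line at the median of each list. Proliferation markers lie below 0 in HE, HE2 and myeloid progenitors, with medians of -0.68, -0.48 and -0.46, and Sesn1, among the other p53 targets, is filled in all 4 panels.

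Over the means of the 8 groups, the genes most like Cdkn2b in Pearson correlation were Tinagl1 (0.971), Jkamp (0.964) and Pdgfra (0.963). These are descriptions over 8 points that share slides and stages. Tinagl1 averaged 8.95 in uninduced HE, 5.48 in uninduced progenitors, 7.05 in uninduced and 8.71 in induced myeloid progenitors, while Jkamp spanned only 13.30 to 13.67 over the 8 groups.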

How the data were processed

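The platform was the Agilent SurePrint G3 Mouse 8x60K array, read in 1 colour. For 23 arrays the authors deposited scanner intensity per spot with local background and flags, not normalized between arrays. The labels name Feature Extraction 10.7.1.1 and the headers 10.7.3.1. The authors also deposited log2 values, background corrected and quantile normalized. These came closer to an offset of 50 (median difference 0.0370) than to the offset of 16 (0.644) and served as an alternative.

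Median intensities were corrected by normexp with offset 16 in limma 3.58.1 (R 4.3.3). Then 3671 control spots and outlier spots were dropped, quantile normalization was run over all 23 arrays, and spots of each probe were averaged. RefSeq accessions (GRCm38.p6, names only) gave symbols to 26582 of 55681 probes. Each gene took its brightest probe on average, and a log2 level of 6.5 or more on 1 array was required. The linear model held 8 group means over 22 arrays, with 14 residual degrees of freedom. An additional uninduced progenitor array, labelled a technical replicate, was normalized but not fitted. Slides came from the file headers. The number of arrays limits the precision.

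The members and lists were chosen with earlier results of these data known. All 10 members are named, with up to 4 called genes of a list per Dox comparison and the 3 genes nearest in group means to a member called with Dox. An exception was made for the other p53 targets in myeloid progenitors, where all called genes are named. By the rule used, replicate numbers paired arrays only from HE to HE2 without Dox. There same-numbered arrays deviated together (correlations 0.394, 0.797 and 0.610 across genes). The main model held no pairing, so its P values for that step ignore it. An alternative held replicate number as a block over all 22 arrays. Tested on simulated data of 14920 genes, 200 of them shifted by 1.5 in log2, the model found 85% of the shifted genes in HE, 84.5% in HE2, 69.5% in the progenitors and, for myeloid progenitors, 81%, with 11, 13, 5 and 6 false calls. Alternatives changed the offset, background correction, scaling, filter, probe choice, threshold, blocks, samples fitted and arrays left out.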

Additional observations from a re-analysis of the deposited data

How the results depend on the processing

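Of the counts of members called under an alternative, 288 stayed within 1.5 times their value and 43 did not. The 288 include counts of 0 that stayed 0. Of the changes of single genes under an alternative, 37 lost their call, 26 gained one and 0 called changes turned their sign. The other 3247 kept their status, which includes all changes called neither in the main fit nor under the alternative. Scaling to the 75th percentile left 0 genes called with Dox in myeloid progenitors, where Cdkn2b changed by 1.29 with an adjusted P of 0.0206. The mean of a gene's probes left 0 called with Dox in myeloid progenitors, from HE2 to progenitors without Dox and from progenitors to myeloid progenitors with Dox, since the dimmer Cdkn2b probe then enters. An adjusted P of 0.05 with a 2-fold change gave 2 genes from HE2 to progenitors and 1 from progenitors to myeloid progenitors without Dox. An adjusted P of 0.05 at any size, added after seeing the data, gave 1 gene for Dox in HE, 1 in HE2 and 3 for the mean over the populations. It gave 2 genes from HE2 to progenitors without Dox and 2 with Dox, where 1243 and 2148 of all 15202 genes passed. From progenitors to myeloid progenitors it gave 3 without and 2 with Dox, where 5031 and 2767 of all genes passed. Slide as a block gave 2 genes from HE2 to progenitors without Dox and 0 with Dox, and from progenitors to myeloid progenitors with Dox it called Cdkn2a (1.44) in place of Cdkn2b. Over all genes it gave 331 calls for Dox in progenitors against 567, 574 against 2118 from progenitors to myeloid progenitors without Dox, 741 against 1119 from HE2 to progenitors with Dox and 280 against 451 for the difference between the Dox responses of progenitors and HE. It gave 853 against 820 from HE2 to progenitors without Dox and 868 against 1120 from progenitors to myeloid progenitors with Dox. A fit of only the groups compared, which has fewer arrays for the spread, gave 0 from HE2 to progenitors without and with Dox, 0 from HE to HE2 with Dox, and 1 without and 2 with Dox from HE to progenitors. The additional progenitor array gave 2 from HE2 to progenitors without Dox. With 1 array left out, counts ranged from 0 to 1 for Dox in HE, 0 to 0 for Dox in myeloid progenitors, 0 to 2 from HE to HE2 with Dox, 0 to 1 from HE2 to progenitors without and with Dox, 0 to 1 from progenitors to myeloid progenitors with Dox, 1 to 2 from HE to progenitors without Dox and 0 to 1 for the difference between the Dox responses of progenitors and HE. The replicate block changed no count of called members, and with it Cdkn2d in HE kept its change of -0.88 with an adjusted P of 0.00436. The replicate numbers pair no groups of a Dox comparison by the rule used. Not run were the steps between early and myeloid arrays normalized apart, and the mean Dox change in only the groups compared. The cause of these differences was not tested otherwise.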
